A study of Homo sapiens with 108 samples.

Results

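PHF7 was knocked down with a short hairpin RNA (shRNA) in HEK293T, a human line derived from embryonic kidney and transformed by viral genes, and the libraries of these cells were set against those of cells with the non-targeting hairpin (NT). All cells of both arms were transduced with lentivirus and selected in puromycin, so that each arm is a mixed pool of integrations and not a single clone. Both arms were labelled with 10 µM 4-thiouridine (4SU) over 24 h, with new medium after each 8 h, moved into 1 mM uridine, and lysed after 0, 2, 4 or 8 h of this chase. The labels number 3 replicates per arm and chase time, and the study's methods call them biological. Libraries were chosen by their titles. Of the 108 libraries of the series, 23 were used, namely 11 of the 12 titled PHF7 knockdown and all 12 titled NT knockdown. PHF7 8 h replicate 3 was left out because it held only 63659 reads in 3′ UTRs, and the 8 h group of PHF7 therefore has 2 libraries.

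PHF7 is a nuclear protein with PHD fingers and a RING domain. It binds histone H3 tails and acts as a ubiquitin ligase for histones, and it is best known from the male germline, where it takes part in the exchange of histones during sperm formation. The series treats it as one of several zinc-finger proteins that may also bind RNA and shape mRNA lifetime. In SLAM-seq, 4SU built into new RNA is alkylated and then read as C by reverse transcriptase, so that T>C mismatches mark RNA made before the chase, and their loss during the chase follows the decay of that RNA. The reads were made from the poly(A) end (QuantSeq), so each count is a count of 3′ ends.

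The hairpins are shown because they define both arms. Each is given as the sense target and as the guide strand, written 5′ to 3′, with the guide seed (bases 2 to 8) in capitals.
PHF7 target: ccgcaagtgcatacagaaata
PHF7 guide: tATTTCTGtatgcacttgcgg
Non-target target: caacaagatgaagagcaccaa
Non-target guide: tTGGTGCTcttcatcttgttg
The PHF7 target lies in the coding sequence on the plus strand of chromosome 3 (hg38) and crosses a splice junction, with 16 bases at the end of exon 7 (chr3:52421047-52421062) and 5 bases at the start of exon 8 (chr3:52421648-52421652) of 11 exons. It matched 7 transcripts of PHF7 and of no other gene, and the non-target sequence matched none. The study lists these hairpins for its knockdown RNA-seq and refers the SLAM-seq cells back to that procedure.

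PHF7 mRNA itself was near the limit of detection in both arms. The PHF7 knockdown libraries held 51, 23 and 0 reads at 0 h, 8, 45 and 14 at 2 h, 19, 154 and 45 at 4 h, and 5 and 0 at 8 h. The NT libraries held 0, 133 and 0 reads at 0 h, 201, 0 and 30 at 2 h, 0, 122 and 9 at 4 h, and 0, 0 and 41 at 8 h. The arms overlapped at each chase time, and the reads of NT came from 6 of 12 libraries. The mean level was 1.36 ± 1.64 CPM in PHF7 knockdown (SD, n = 11) and 4.28 ± 6.66 CPM in NT (SD, n = 12). CPM here is the share of a library that a gene takes, scaled to a fixed total and by TMM factors between libraries. The log2 fold change was -2.05 (SE 1.21) and did not pass the test (edgeR quasi-likelihood, Benjamini-Hochberg adjusted p = 0.287). Within PHF7, the short 3′ UTR interval chr3:52422827-52422881 averaged 0.0899 CPM in PHF7 knockdown and 2.45 CPM in NT, and the terminal interval chr3:52423092-52423641 averaged 1.32 CPM in PHF7 knockdown and 1.73 CPM in NT. A knockdown of the mRNA was not detectable in these 3′ end counts at this depth. The study's methods state that knockdown in the SLAM-seq cells was verified by qPCR, a measure not examined here.

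Depth differed between the arms without overlap. PHF7 knockdown libraries held 14385548 to 30750027 reads in 3′ UTRs (median 21117557) in 13240 to 13975 detected genes, and NT libraries held 8206060 to 13359455 reads (median 10187470) in 11137 to 11825 genes. Replicates also scattered less in PHF7 knockdown, with a median coefficient of variation per gene of 10.0% to 12.8% by chase time, against 24.7% to 27.5% in NT, where counting error alone gives 2.38% to 3.09% in PHF7 knockdown and 3.84% to 4.24% in NT. Depth, preparation and hairpin cannot be told apart in these arms. The 48 libraries of 4 other knockdowns (MAZ, ZMAT3, ZMAT5 and ZNF706) held 9347942 to 28110307 reads and were therefore used as a further reference for named mRNAs. Of 8 markers known from HEK293T, 2 were called higher, VIM, described with the rises, and SALL4, with 231 reads in PHF7 knockdown and 3 in NT, and 6 were not called, among them LIN28B at 82.1 CPM in PHF7 knockdown and 86.3 CPM in NT. SALL4 was not called by DESeq2 (adjusted p = 0.0585) or, in edgeR, without PHF7 8 h replicate 1 (0.0529). Of 14 markers of other cell types, 5 could be tested and 1 was called higher, COL3A1, with 201 reads in PHF7 knockdown and 0 in NT, whereas PTPRC, CD3E, HBB, DES, MYH7 and INS held 0 to 3 reads per arm. In bulk RNA, fewer cells of a kind and less RNA per cell cannot be told apart.

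The first question was which mRNA levels differed in PHF7 knockdown at matched chase times. NR2F1, an orphan nuclear receptor, rose 2.38-fold, and CANX, the endoplasmic reticulum lectin chaperone calnexin, fell to 324 ± 41.6 CPM in PHF7 knockdown (SD, n = 11), against 947 ± 65.0 CPM in NT (SD, n = 12). Of 13746 genes tested, 1922 (14.0%) were called, with a fold change over 1.2 and an adjusted p under 0.05, of which 1068 (7.77%) were higher and 854 (6.21%) lower in PHF7 knockdown. The median log2 fold change over all genes was 0.12, and the values below are given against the TMM scale without taking this shift away. Among the 7789 genes that averaged at least 20 CPM in the higher arm, 614 (7.88%) were called higher and 828 (10.6%) lower, with a median log2 fold change of 0.03. The libraries of the arms did not overlap in 43 genes that were higher (0.313%) and 154 that were lower (1.12%).

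Higher and lower calls differed in where they lay on the scale of expression. Of 5957 genes tested under 20 CPM, 454 were called higher and 26 lower in PHF7 knockdown. Over all genes tested, 255 had no read in any NT library, and 199 of them were among the 1068 called higher. No read in any PHF7 library was found for 10, of which 7 were called lower. Such genes passed the filter on low counts only through the other arm, which fixed their direction. Their calls are therefore a description. Of the genes called higher, 426 had reads in at most 3 NT libraries. The PHF7 libraries being deeper, the part of depth in these calls was not tested beyond thinning, under which 954 genes were called higher and 849 lower. With PHF7 8 h replicate 3 added back, 518 genes were called higher and 603 lower.

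**Figure D1:**
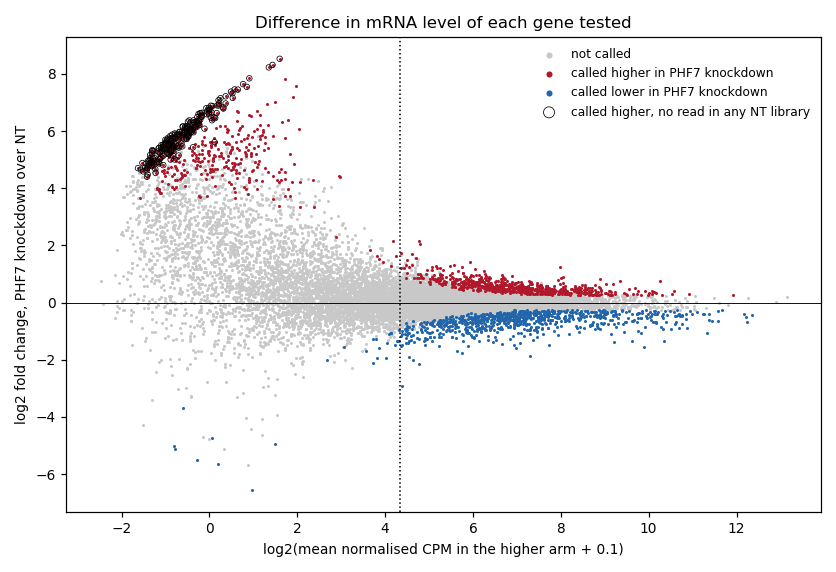
Each point is 1 of the 13746 genes tested. The x axis is log2 of the mean normalised CPM in the higher arm (plus 0.1) and the y axis the log2 fold change of PHF7 knockdown over NT. Red and blue points were called higher and lower, points ringed in black mark the 199 genes called higher with no NT read, and the dotted line marks 20 CPM, left of which 454 of the 480 called genes were higher.

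The largest rises among well-measured mRNAs were of varied function. They were taken from genes with at least 20 CPM in the higher arm whose libraries did not overlap between the arms, so separation of the arms is given by the choice. NR2F1 had its lowest, median and highest values at 231, 249.7 and 298 CPM in PHF7 knockdown and at 75.5, 107 and 202 CPM in NT, with a log2 fold change of 1.25 (SE 0.11, edgeR adjusted p = 3.08e-10). RRAGD, a Rag GTPase that signals amino acids to mTORC1, had 39.9, 55.4 and 65.1 CPM in PHF7 knockdown and 5.91, 26.6 and 37.5 CPM in NT (log2 fold change 1.23). TXNIP, an arrestin-like protein that binds thioredoxin and restrains glucose uptake, had 40.6, 52.6 and 82.3 CPM in PHF7 knockdown and 6.90, 32.4 and 39.8 CPM in NT (log2 fold change 1.03). In NR2F1 the highest NT library was 1 of the 3 at 8 h, and in TXNIP the arms came within 1 CPM of each other. VIM, the intermediate filament protein vimentin, was the most abundant of these mRNAs and averaged 1221 ± 77.8 CPM in PHF7 knockdown (SD, n = 11) and 716 ± 94.5 CPM in NT (SD, n = 12), a log2 fold change of 0.77 (SE 0.06, edgeR adjusted p = 1.11e-11).

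Other rises were in genes of DNA repair, metabolism, membranes and signalling. SHCBP1, which acts in cytokinesis, rose by a log2 fold change of 1.10, FANCG of the Fanconi anaemia core complex by 0.97, and CPOX, a heme synthesis enzyme, by 0.93. PNRC2, a nuclear receptor coactivator that also binds the decapping machinery, averaged 266 CPM in PHF7 knockdown and 143 CPM in NT (log2 fold change 0.90). GFPT1, which opens the hexosamine pathway, rose by 0.84, RMDN3, a tether between endoplasmic reticulum and mitochondria, by 0.83, and the tetraspanin TSPAN6 by 0.81. COPS5, the deneddylase of the COP9 signalosome, averaged 160.0 CPM in PHF7 knockdown and 98.6 CPM in NT (log2 fold change 0.71). The rises of smallest p beyond these were C1orf43 (0.48), the cargo receptor TMED2 (0.52), ARL6IP1, which shapes the endoplasmic reticulum (0.63), and PLEKHB2 of recycling endosomes (0.69).

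The falls included abundant mRNAs. CANX had lowest, median and highest values of 287, 311 and 412 CPM in PHF7 knockdown and 825, 954 and 1047 CPM in NT, and its log2 fold change was -1.55 (SE 0.06, edgeR adjusted p = 1.19e-17). The 2 PHF7 libraries at 8 h were the highest of that arm for CANX, and all PHF7 libraries lay far below all NT libraries. RPS24, a protein of the small ribosomal subunit, had 997, 1200.0 and 1352 CPM in PHF7 knockdown and 2193, 2556 and 2914 CPM in NT (log2 fold change -1.07, SE 0.05, edgeR adjusted p = 9.44e-16). EIF5A, the hypusine-carrying translation factor, had 231, 317 and 375 CPM in PHF7 knockdown and 541, 760.1 and 967 CPM in NT (log2 fold change -1.34). CANX and RPS24 were called even from the 2 PHF7 and 3 NT libraries at 8 h alone, a setting that called 4 genes in all.

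The other large falls included regulators of transcription, signalling and cell death. UNCX, a homeobox factor, averaged 6.25 ± 2.23 CPM in PHF7 knockdown (SD, n = 11) and 27.3 ± 8.81 CPM in NT (SD, n = 12), with the largest fitted fall of these mRNAs (log2 fold change -2.14). HRK, a BH3-only member of the BCL2 family that promotes cell death, averaged 6.08 CPM in PHF7 knockdown and 23 CPM in NT (log2 fold change -1.90). PTMS, the small acidic protein parathymosin, had 33.5, 44.1 and 58.2 CPM in PHF7 knockdown and 91.9, 158 and 208 CPM in NT (log2 fold change -1.86). MARVELD1 fell by 1.77 on the log2 scale, the inhibitory SMAD SMAD6 by 1.68, the CDC42 effector CDC42EP1 by 1.57 and the helicase DHX33 by 1.49. MIDN, the proteasome-linked protein midnolin, fell by 1.46, ZNF768, a zinc-finger protein, by 1.41, and STC2, the secreted glycoprotein stanniocalcin 2, by 1.39. The falls of smallest p beyond these included SNRPD1, a core Sm protein of the spliceosome (683 CPM in PHF7 knockdown and 1285 CPM in NT), and the alpha tubulin TUBA1C (770 ± 60.9 CPM in PHF7 knockdown and 1465 ± 142 CPM in NT, SD).

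PRRC2C, a large stress-granule protein, showed where in a gene the counts fell. Its log2 fold change was -1.49 overall. The 54-base interval chr1:171532722-171532775 averaged 20.3 CPM in PHF7 knockdown and 99.3 CPM in NT. The terminal interval chr1:171591846-171593511 averaged 56.7 CPM in PHF7 knockdown and 109 CPM in NT. Both were lower, the short interval more so.

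**Figure D2:**
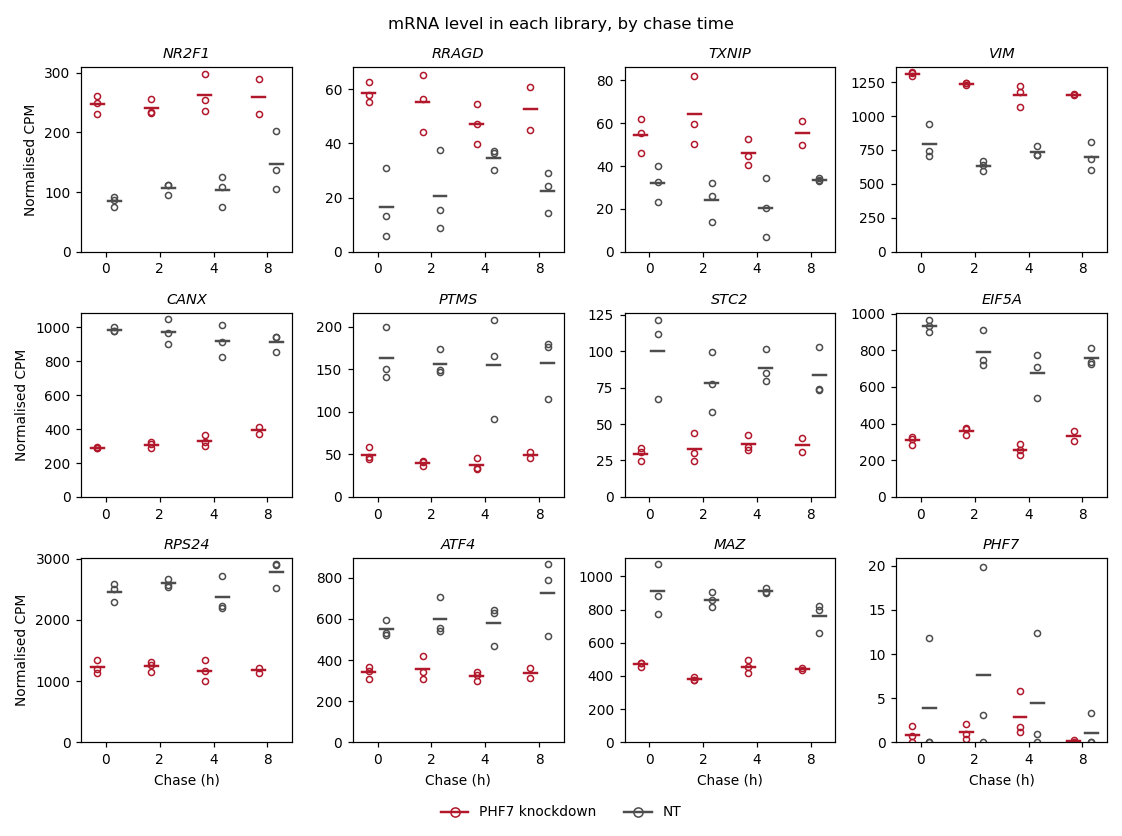
Normalised CPM (y axis) of 12 mRNAs in each library by hours of chase (x axis), with PHF7 knockdown in red to the left of NT in grey and bars at the group means. NR2F1, RRAGD, TXNIP and VIM were higher in each PHF7 library than in any NT library and CANX, PTMS, STC2, EIF5A, RPS24, ATF4 and MAZ lower, while PHF7 lay under 20 CPM in all libraries with the arms overlapping.

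The 4 other knockdowns separated these mRNAs into differences that were present against other hairpins too and differences that were not. Of 14864 genes tested in that comparison, 1436 (9.66%) were called higher and 1203 (8.09%) lower in PHF7 knockdown. Both comparisons share the PHF7 libraries, so the values stand side by side and do not count as separate evidence. NR2F1 averaged 112 CPM in the 4 others and stood at a log2 fold change of 1.2 (edgeR adjusted p = 2.07e-22), CANX averaged 1014 ± 129 CPM (SD, n = 48) and stood at -1.67 (3.27e-40), STC2 at -1.56 (1.67e-21) and RPS24 at -1.09 (3.02e-25). TXNIP stood at 0.90, RRAGD at 0.75 and VIM at 0.52, and all of these were called. Against ZMAT5 alone VIM stood at 0.15, under the fold threshold.

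For other mRNAs the difference from the 4 others was smaller than that from NT. EIF5A averaged 307 CPM in PHF7 knockdown in that fit and 299 CPM in the 4 others (log2 fold change 0.08, edgeR adjusted p = 0.666). ZNF768 stood at -0.18 (0.178), C1orf43 at 0.08 (0.163), and PTMS, which averaged 58.7 CPM in the 4 others, at -0.46 (edgeR adjusted p = 0.000845). SHCBP1 stood at 0.33 against the 4 others together, and at -0.07 against ZMAT5 alone. Against the 4 others, EIF5A, ZNF768 and C1orf43 were not called.

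Histone ubiquitin and histone H3 genes, the setting in which PHF7 is known, had calls in both directions. Of 36 genes for histone ubiquitin ligases, erasers and Polycomb proteins, 3 were called higher and 4 lower, or 19.4% in all, against 14.0% over all genes and 18.5% over genes with at least 20 CPM, and the median log2 fold change was -0.02. BAP1, which removes ubiquitin from histone H2A and whose gene (chr3:52401008-52410008, minus strand) lies beside PHF7, averaged 83.6 ± 11.2 CPM in PHF7 knockdown (SD, n = 11) and 52.7 ± 22.9 CPM in NT (SD, n = 12), with a log2 fold change of 0.69 (edgeR adjusted p = 0.00526). Its NT libraries reached from 28.9 to 116 CPM and overlapped all PHF7 libraries, which lay between 60.9 and 102 CPM. Against the 4 others BAP1 stood at 0.41 (edgeR adjusted p = 0.000234), and against ZNF706 alone it was not called. USP22, the deubiquitinase of the SAGA complex, averaged 215 CPM in PHF7 knockdown and 306 CPM in NT (log2 fold change -0.50). Of 5 tested genes among PHF7 and its neighbours, BAP1 alone was called.

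The further calls of this group were UBE2A and RNF40, which ubiquitinate histone H2B, on the higher side and EED of Polycomb, UBE2E1 and the CUL4 adaptor DDB1 on the lower side. None of these 5 was called when PHF7 8 h replicate 3 was added back, and UBE2A shares counted bases with another gene. Of 28 writers, erasers and readers of histone H3 lysine 4 methylation, 3 were called higher and 2 lower, or 17.9% in all (median log2 fold change 0.00). WDR5, the scaffold of the MLL complexes, had 68.1, 86.8 and 108 CPM in PHF7 knockdown and 112, 158 and 195 CPM in NT (log2 fold change -0.87, edgeR adjusted p = 1.06e-07), without overlap. The total of 5 calls was 3 without NT 8 h replicate 3, PHF7 8 h replicate 1 or PHF7 8 h replicate 2, and 1 with PHF7 8 h replicate 3 added back. Of 10 replication-independent histones, 1 was called higher and 2 lower, or 30% in all. H1-10 (66.1 CPM in PHF7 knockdown and 105 CPM in NT) and H2AZ1 (2045 CPM in PHF7 knockdown and 2639 CPM in NT) fell. Of the germline markers listed, 1 could be tested, MAGEA4, which held 61 reads in PHF7 knockdown and 0 in NT and was not called. DDX4, DAZL, BRDT, PRM1, TNP1, TNP2, SYCP1, TEX101 and STRA8 held 0 reads in either arm. PRM2, SYCP3 and PIWIL1, also listed, were not tested either.

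Of the lists examined, ribosomal protein mRNAs had the highest share of members called lower. Of 79 cytosolic ribosomal protein mRNAs, 33 (41.8%) were called lower and 4 (5.06%) higher. Over all genes 6.21% were lower and 7.77% higher, and over genes with at least 20 CPM 10.6% were lower. The median log2 fold change was -0.25, against 0.12 over all genes. In 17 of the 79 the arms did not overlap, where over all genes 0.313% were higher and 1.12% lower without overlap. RPLP1, a protein of the ribosomal stalk, had 474, 515 and 640 CPM in PHF7 knockdown and 783, 916 and 1375 CPM in NT (log2 fold change -0.85), and its partner RPLP2 averaged 702 ± 38.3 CPM in PHF7 knockdown and 1152 ± 173 CPM in NT (log2 fold change -0.70). RPS25 and RPL21 were among the 4 called higher, but RPS25 shares counted bases with another gene and 82.7% of RPL21 reads were multimapped. Neither was called with PHF7 8 h replicate 3 added back, where 30 members were lower and 0 higher. RPS9, with 99.2% multimapped reads and a log2 fold change of -1.37, stood at 0.28 once multimapped reads were left out. Against the 4 others, 61 of the 79 were called lower and 0 higher, where over all genes 8.09% were lower and 9.66% higher.

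Calls among genes that make ribosomes were mostly lower as well. Of 48 ribosome biogenesis and nucleolar mRNAs, 14 (29.2%) were called lower and 1 (2.08%) higher (median log2 fold change -0.17). Over all genes 6.21% were lower, and over genes with at least 20 CPM 10.6%. UBTF, the activator of ribosomal RNA transcription, averaged 75 CPM in PHF7 knockdown and 129.7 CPM in NT (log2 fold change -0.79), and GAR1 of the H/ACA particles averaged 184 CPM in PHF7 knockdown and 290.3 CPM in NT (-0.66). GNL2, a nucleolar GTPase, stood at -0.95 but shares counted bases with another gene. Of 38 SR and hnRNP splicing factors, 9 (23.7%) were called lower and 0 higher. HNRNPUL2 averaged 72.9 ± 9.63 CPM in PHF7 knockdown and 158 ± 19.9 CPM in NT (log2 fold change -1.11).

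Stress, lipid and p53 target genes had larger shares of members called lower than all genes did. The shares were 20.6%, 21.9% and 19.2% in this order, against 6.21% over all genes and 10.6% over genes with at least 20 CPM, and their medians of 0.02, -0.00 and -0.05 were below the 0.12 of all genes. Of 34 ATF4 and unfolded protein response mRNAs, 7 were called lower and 3 higher. ATF4, the transcription factor of the integrated stress response, had 296, 339 and 418 CPM in PHF7 knockdown and 470.1, 575 and 867 CPM in NT (log2 fold change -0.84, edgeR adjusted p = 5.34e-09), without overlap, and stood at -0.85 against the 4 others. ATF5 fell by 1.01 on the log2 scale and SDF2L1, an endoplasmic reticulum chaperone cofactor, by 0.88, whereas MANF, another protein of that compartment, averaged 398 ± 32.4 CPM in PHF7 knockdown and 302 ± 59.7 CPM in NT (0.41). Of 32 cholesterol and fatty-acid synthesis mRNAs, 7 were called lower and 0 higher, among them SCD, the stearoyl-CoA desaturase (211 CPM in PHF7 knockdown and 311 CPM in NT). Of 26 p53 targets, 5 were called lower and 0 higher, and 3 were lower with PHF7 8 h replicate 3 added back. BBC3, the BH3-only protein PUMA, stood at -1.19, MDM2, the ligase that degrades p53, at -0.73, and BAX at -0.64.

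The cell cycle lists had calls both ways, with more of them higher. Of 40 G2/M and mitosis mRNAs, 12 (30%) were called higher, against 7.77% over all genes, and 4 (10%) lower, against 6.21%, with a median log2 fold change of 0.07. HMMR, a spindle protein, averaged 83.9 ± 6.67 CPM in PHF7 knockdown (SD, n = 11) and 47.3 ± 20.7 CPM in NT (SD, n = 12), with a log2 fold change of 0.87 and with overlap, since NT reached 82.5 CPM. KIF23, a kinesin of cytokinesis, stood at 0.49 and CCNA2, cyclin A2, at -0.48. With PHF7 8 h replicate 3 added back, 3 members were higher and 3 lower. Of 48 G1/S and replication mRNAs, 6 were called higher and 4 lower. These are 20.8% in all, against 14.0% over all genes and 18.5% over genes with at least 20 CPM. Cyclin D genes went opposite ways, with CCND3 at 73.4 CPM in PHF7 knockdown and 47.9 CPM in NT (log2 fold change 0.60), and CCND2 at 35.3 CPM in PHF7 knockdown and 72.1 CPM in NT (-1.04).

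Mitochondrial mRNAs split as well. Of 76 nuclear-encoded oxidative phosphorylation mRNAs, 9 were called higher and 9 lower, or 23.7% in all (median 0.03). The share called was 14.0% over all genes and 18.5% over genes with at least 20 CPM. UQCRC1, a core protein of complex III, averaged 139 ± 13.5 CPM in PHF7 knockdown and 89.6 ± 18.2 CPM in NT (log2 fold change 0.64). NDUFB7 of complex I had 31.8, 36.3 and 41.7 CPM in PHF7 knockdown and 69.0, 90.5 and 143 CPM in NT, without overlap (-1.32), and the complex V subunits ATP5ME and ATP5MF stood at -0.93 and -0.69. Of 75 mitochondrial ribosome mRNAs, 4 were called higher and 9 lower (17.3% in all), and 1 and 6 with PHF7 8 h replicate 3 added back. MRPL28 averaged 28.1 CPM in PHF7 knockdown and 62.0 CPM in NT (log2 fold change -1.13). Against the 4 others, NDUFB7 stood at 0.12 (edgeR adjusted p = 0.495) and MRPL28 at 0.29 (0.117), and neither was called there.

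Most interferon-stimulated genes lay near the limit of detection. Of the 9 with at least 20 CPM, 2 were called higher and 0 lower, with a median log2 fold change of 0.13, against 0.03 over all genes at that level. Over all genes at that level, 7.88% were called higher and 10.6% lower. The other 23 tested lay under 20 CPM, and 4 of them had no NT read and so passed the filter on low counts only through the PHF7 libraries, which fixes their direction. The 6 calls among these 23 are therefore given as a description, beside 480 calls among all 5957 genes tested under 20 CPM. IFIT2, an interferon-induced RNA-binding protein, held 203 reads in PHF7 knockdown and 0 in NT. Its mean in PHF7 knockdown was 36.2 times a floor set at 3 reads over the NT arm. DHX58, a RIG-I-like receptor, stood at 40.3 times that floor (207 reads in PHF7 knockdown and 0 in NT). The exonuclease ISG20 stood at 31.5 times it (187 reads in PHF7 knockdown and 0 in NT). The floor takes no account of the spread between NT libraries, so these values are not lower bounds. IFI35 held 355 reads in PHF7 knockdown and 2 in NT, and was the only called member without overlap of the arms. At a higher level, and picked after its values were seen, B2M, beta-2 microglobulin, averaged 416 CPM in PHF7 knockdown and 313 CPM in NT. Of 35 members tested against the 4 others, 3 were higher and 1 lower, where over all genes 9.66% were higher and 8.09% lower. COL3A1, a fibrillar collagen among the markers of other cells, had the same pattern of no NT read and was not called by DESeq2. With counts thinned to the shallowest library, the interferon list again had 8 calls in all, and with PHF7 8 h replicate 3 added back it had 6.

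Of the remaining lists, immediate-early and other short-lived mRNAs had 7 of 40 lower and 2 higher, or 22.5% called. The actin, tubulin and YAP target list below had 33.3% called and the NRF2 and metal response list 36.8%. Over all genes the share was 14.0%. ID3, an inhibitor of bHLH factors, averaged 165 ± 18.8 CPM in PHF7 knockdown and 339 ± 57.5 CPM in NT (log2 fold change -1.05), and JUND, an AP-1 subunit, 99.8 ± 8.79 CPM in PHF7 knockdown and 189 ± 36.1 CPM in NT (-0.91). Of 30 actin, tubulin and YAP target mRNAs, 7 were lower and 3 higher, with TUBA1B, the main alpha tubulin, at 3325 ± 181 CPM in PHF7 knockdown and 4728 ± 280 CPM in NT (-0.51). Of 19 NRF2 and metal response mRNAs, 4 were higher and 3 lower. The metallothionein MT1F averaged 27.2 ± 5.91 CPM in PHF7 knockdown and 7.20 ± 7.03 CPM in NT (log2 fold change 2.17), and TXN, thioredoxin, averaged 536 CPM in PHF7 knockdown and 851 CPM in NT (-0.67). The heat shock (1 higher and 3 lower of 22), glycolysis (2 and 4 of 29), m6A (4 and 1 of 21) and cleavage and polyadenylation (0 and 3 of 25) lists had 18.2%, 20.7%, 23.8% and 12% of their members called, in this order, against 14.0% over all genes and 18.5% over genes with at least 20 CPM. With PHF7 8 h replicate 3 added back, 2 heat shock, 1 m6A and 1 cleavage and polyadenylation member were called. The last list had 1 call without NT 2 h replicate 3, PHF7 0 h replicate 3, PHF7 2 h replicate 2 or PHF7 4 h replicate 2 or 3, and 5 without NT 8 h replicate 1. With no filter on low counts, the immediate-early list had 10 lower and 4 higher.

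**Figure D3:**
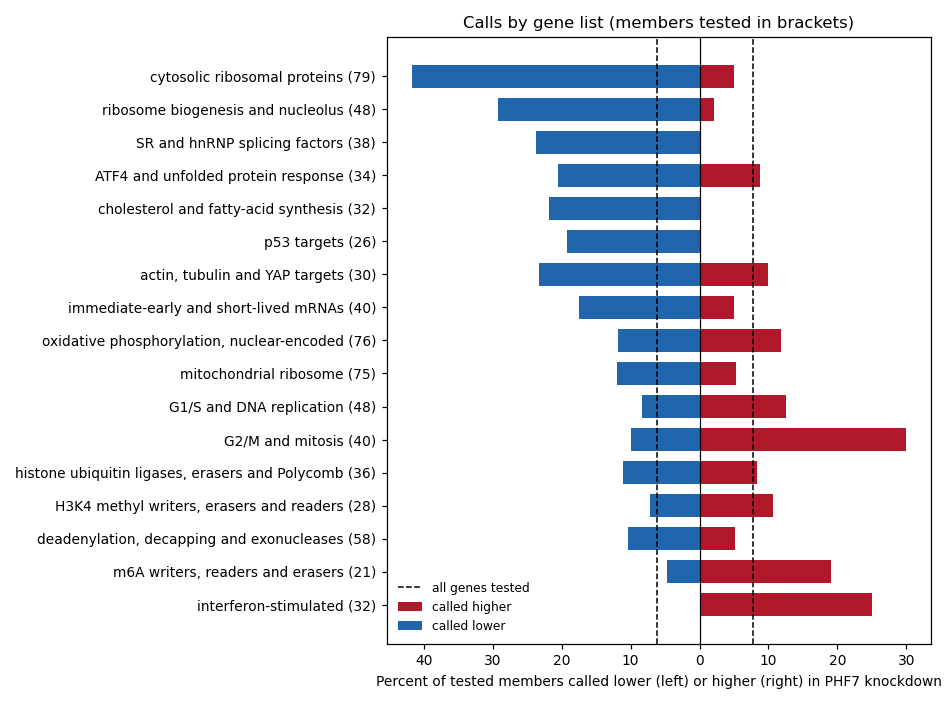
Bars give the percent of tested members of each of 17 lists called lower (left, blue) or higher (right, red) in PHF7 knockdown, with the number tested in brackets. Dashed lines mark the share over all genes tested, 6.21% lower and 7.77% higher; ribosomal protein mRNAs reach furthest to the left and G2/M mRNAs furthest to the right.

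The mRNAs of the decay and labelling machinery were looked at because they bear on label. Of 58 deadenylation, decapping and exonuclease mRNAs, 3 were called higher and 6 lower, and with PHF7 8 h replicate 3 added back 1 and 4. The 3 and 6 are 15.5% in all, near the 14.0% over all genes and below the 18.5% over genes with at least 20 CPM. CNOT6, a deadenylase of the CCR4-NOT complex, had 43.9, 65.2 and 98.2 CPM in PHF7 knockdown and 96.8, 139 and 169 CPM in NT (log2 fold change -1.05, edgeR adjusted p = 9.74e-08), with a small overlap. CNOT11 of the same complex stood at -0.55. Of 13 small RNA pathway mRNAs, 2 were lower and 0 higher, or 15.4% called, also near the share over all genes. The 2 were DROSHA (-0.70), which cuts primary microRNAs, and TNRC6A (-0.51), which recruits deadenylases to microRNA targets. Without NT 4 h replicate 1, 4 members were called. Of 21 mRNAs for uridine and 4SU uptake and salvage, 3 were higher and 1 lower (19% in all), and with PHF7 8 h replicate 3 added back 1 and 1. SLC29A1, the nucleoside transporter that takes up uridine, had 114, 134 and 148 CPM in PHF7 knockdown and 142, 206 and 269 CPM in NT (log2 fold change -0.70), and stood at -0.71 against the 4 others. CMPK1, the UMP-CMP kinase, averaged 205 CPM in PHF7 knockdown and 138 CPM in NT (0.57).

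Among the other genes targeted in the series, MAZ and BRCA1 were lower in PHF7 knockdown. MAZ, a zinc-finger transcription factor, had 376, 448 and 496 CPM in PHF7 knockdown and 659, 872 and 1076 CPM in NT (log2 fold change -0.99, edgeR adjusted p = 1.69e-13), without overlap. BRCA1, the DNA repair ligase, averaged 69.1 CPM in PHF7 knockdown and 93.6 CPM in NT (-0.43, edgeR adjusted p = 0.0133), and was not called with PHF7 8 h replicate 3 added back (adjusted p = 0.0735). CNOT4, ZFP36L1, ZMAT3, ZMAT5 and ZNF706 were not called.

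The next question was whether these differences changed over the chase. Of 13746 genes, 1 (0.00727%) had a difference that depended on chase time (edgeR adjusted p under 0.05), and 780 did so at an unadjusted p under 0.05. That gene was ZKSCAN5, a KRAB zinc-finger gene, in which a single library stood apart. The largest rises and falls had the same sign at 0, 2, 4 and 8 h by the rule that chose them. That rule was not applied to the members named from lists.

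Label was higher in PHF7 knockdown than in NT at the end of labelling and at each later time. Over the 6006 genes with more than 5 CPM in each library, the pooled T>C rate (conversions over covered T positions) at 0 h was 2.34%, 2.19% and 2.27% in the PHF7 knockdown libraries and 1.87%, 1.72% and 1.77% in NT. The arms did not overlap, and the ratio was 1.27. At 2 h the rate averaged 2.09% ± 0.157 in PHF7 knockdown and 1.4% ± 0.0554 in NT, and at 4 h 1.5% ± 0.0371 in PHF7 knockdown and 1.06% ± 0.0194 in NT (SD, n = 3 each). At 8 h it averaged 0.928% ± 0.0323 in PHF7 knockdown (SD, n = 2) and 0.642% ± 0.0341 in NT (SD, n = 3). An exact two-sided permutation test gave p = 0.1 at each time, which is the smallest p these numbers of libraries allow. No gene was called for label at 0 h relative to its library as a whole (0 of 7474, 0%, by edgeR and 0 by limma), although 784 had an unadjusted p under 0.05, and 24, 52 and 90 genes were called by edgeR without NT 0 h replicate 1, 2 and 3 in turn. No library without 4SU was analysed here, so the part of the rate that comes from sequencing error is not known. Label this high was not particular to PHF7 knockdown. Over all intervals at 0 h, the rate was 2.21% to 2.36% in PHF7 knockdown and 1.68% to 1.83% in NT. ZMAT5 knockdown lay below NT (1.23% to 1.31%). Knockdown of ZNF706 gave 2.17% to 2.54%, that of ZMAT3 2.47% to 3.51% and that of MAZ 2.74% to 3.12%. Why label differed between knockdowns was not tested.

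Whether the pooled loss of label differed could not be decided by the test used. As a percent of the arm's own 0 h value, label stood at 92.3% in PHF7 knockdown and 78.2% in NT after 2 h, at 66.2% in PHF7 knockdown and 59.3% in NT after 4 h, and at 40.9% in PHF7 knockdown and 35.9% in NT after 8 h. The slope of the log rate was 0.116 per h in PHF7 knockdown and 0.129 per h in NT, a difference of 0.0127 per h (exact two-sided permutation of arms within chase times, 80000 arrangements, p = 0.644). The arms differed in label without overlap at each time. Swapping libraries between them within a time therefore moves the slopes too, so this p does not measure the spread of replicates. The slopes of the 2 arms correspond to pooled half-lives of 5.97 h in PHF7 knockdown and 5.38 h in NT. With PHF7 8 h replicate 3 added back, the difference turned to -0.0229 per h. By interval, label fell by 0.0401 ± 0.0236 per h in PHF7 knockdown and 0.123 ± 0.0170 in NT from 0 to 2 h, by 0.166 ± 0.0228 in PHF7 knockdown and 0.138 ± 0.0126 in NT from 2 to 4 h, and by 0.120 ± 0.00710 in PHF7 knockdown and 0.126 ± 0.00811 in NT from 4 to 8 h (SE). The widest gap between the arms was that from 0 to 2 h, and taken alone it did not pass the test (difference 0.0822 per h, exact two-sided permutation p = 0.48, a comparison chosen after seeing the data). The same limit holds for this p.

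Half-lives of single genes were longer in PHF7 knockdown. A first-order curve with R² over 0.6 was obtained in both arms for 5164 genes, with median half-lives of 4.66 h in PHF7 knockdown and 3.22 h in NT. The median log2 ratio was 0.56 (1.47-fold), and 4272 genes (82.7%) were longer in PHF7 knockdown. By replicate, the median half-life was 4.50, 5.12 and 5.23 h in PHF7 knockdown (the third without 8 h) and 3.24, 3.65 and 3.31 h in NT, without overlap (exact two-sided permutation test, p = 0.1, the smallest that 3 against 3 allows). Each replicate curve joined libraries of equal number over the chase, and these numbers are names only. The values by replicate and their p depend on this joining.

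Genes with next to no label moved with this shift. A T>C rate under 0.1% was found at 0 h in 0.067% to 0.080% of 7479 genes in PHF7 knockdown and 3.57% to 5.01% in NT, and at 8 h in 5.35% to 6.08% in PHF7 knockdown and 28.7% to 40.7% in NT. At 0 h, 5 to 6 genes in PHF7 knockdown and 103 to 166 in NT had no conversion at all. The median gene had 1050 to 1057 reads at 8 h in PHF7 knockdown and 509 to 768 in NT. Replicate rates per gene had a median coefficient of variation of 10.4% to 23.2% in PHF7 knockdown and 34.4% to 84.4% in NT. The part of depth and of these low-label genes in the half-life shift was not tested.

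**Figure D4:**
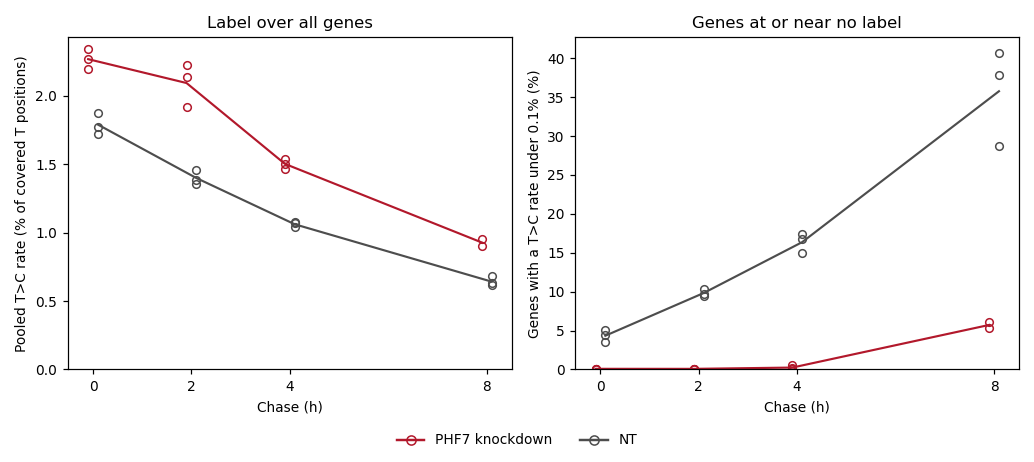
The left panel gives the pooled T>C rate (percent of covered T positions, y axis) and the right panel the percent of genes with a rate under 0.1% (y axis), by hours of chase (x axis), with PHF7 knockdown in red and NT in grey, a point per library and lines through the group means. Pooled label lies above NT at each time in PHF7 knockdown, and at 8 h the low-label share is 5.35% to 6.08% in PHF7 knockdown and 28.7% to 40.7% in NT.

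Few genes were called for a difference in the rate of label loss. Of 7474 tested, 31 (0.415%) lost label more slowly and 3 (0.0401%) faster in PHF7 knockdown (edgeR on conversions with T coverage as offset, adjusted p under 0.05), and 809 had an unadjusted p under 0.05. The median loss was 0.168 per h in PHF7 knockdown and 0.198 per h in NT, and 66.7% of genes had the slower sign. The median difference was 0.0326 per h. In simulated data, the genes changed were all above the median T coverage, so recovery in the others was not measured. The fit recovered 6% of 50 genes made slower by 0.1 per h and 4% of 50 made faster by 0.1. At 0.2 per h it recovered 58% and 26%. Few calls therefore do not show that few genes differed. The total of 34 calls was not stable to single libraries. It was 15, 16 and 19 without PHF7 0 h replicate 1, 2 and 3, 22 and 11 without PHF7 8 h replicate 1 and 2, 72, 59 and 69 without NT 4 h replicate 1, 2 and 3, and 58 without NT 8 h replicate 1.

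RCHY1, a ubiquitin ligase that acts on p53, had the smallest p. Its T>C rate at 0 h was 3.18%, 2.75% and 2.73% in PHF7 knockdown and 2.41%, 4.12% and 1.28% in NT. At 4 h it was 0.900%, 1.45% and 1.34% in PHF7 knockdown and 0.187%, 0.342% and 0.16% in NT, and at 8 h 0.382% and 0.67% in PHF7 knockdown and 0.0116%, 0.00358% and 0.0116% in NT. The arms overlapped at 0 h and parted from 2 h on, and loss was 0.220 per h in PHF7 knockdown and 0.696 per h in NT (edgeR adjusted p = 0.000129), or half-lives of 3.61 h in PHF7 knockdown and 1.26 h in NT. RCHY1 was also called by limma on the log2 rate, which called 2 genes in all.

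The other slower mRNAs of smallest p were of varied function. IER5, an immediate-early gene of the stress response, lost 0.362 per h in PHF7 knockdown and 0.697 per h in NT (edgeR adjusted p = 0.00445). YWHAG, a 14-3-3 protein, lost 0.249 per h in PHF7 knockdown and 0.408 per h in NT (0.0084), and its 8 h rate was 0.418% and 0.382% in PHF7 knockdown and 0.109%, 0.126% and 0.115% in NT. The YWHAG call was lost on T>C reads (edgeR adjusted p = 0.0593) and with PHF7 8 h replicate 3 added back (0.0907). ATG16L1, an autophagy protein, lost 0.261 per h in PHF7 knockdown and 1.11 per h in NT, with no conversion in any NT library at 8 h, and POLR1B, a subunit of RNA polymerase I, lost 0.252 per h in PHF7 knockdown and 0.765 per h in NT. Of these 4, none was called by limma. CENPQ, a centromere protein, lost 0.246 per h in PHF7 knockdown and 1.39 per h in NT (edgeR adjusted p = 0.00689), but its NT libraries at 0 h ranged from 0.161% to 4.92%, and it was not called without PHF7 8 h replicate 2 (adjusted p = 0.0535).

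CANX had the smallest p of the faster mRNAs named here and was also among the largest falls in level. Its T>C rate at 0 h was 2.43%, 2.35% and 2.83% in PHF7 knockdown and 1.41%, 1.39% and 1.63% in NT, and at 8 h 0.942% and 0.689% in PHF7 knockdown and 0.879%, 1.04% and 1.12% in NT. PHF7 knockdown thus lay above NT at 0 h without overlap, and the arms overlapped at 8 h. Loss was 0.147 per h in PHF7 knockdown and 0.0476 per h in NT (edgeR adjusted p = 0.00975), or half-lives of 4.61 h in PHF7 knockdown and 13.7 h in NT. CANX was not called without PHF7 8 h replicate 2 (adjusted p = 0.0835), by limma (0.071) or with PHF7 8 h replicate 3 added back (0.181). SRSF3, an SR splicing factor whose level was 1356 ± 104 CPM in PHF7 knockdown and 1429 ± 144 CPM in NT, lost 0.180 per h in PHF7 knockdown and 0.0901 per h in NT (edgeR adjusted p = 0.0452). Its call was lost by limma (0.103), on T>C reads (edgeR adjusted p = 0.148), with PHF7 8 h replicate 3 added back (0.128), and in 16 of the 23 fits that left out a library (edgeR adjusted p = 0.0512 to 0.241).

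**Figure D5:**
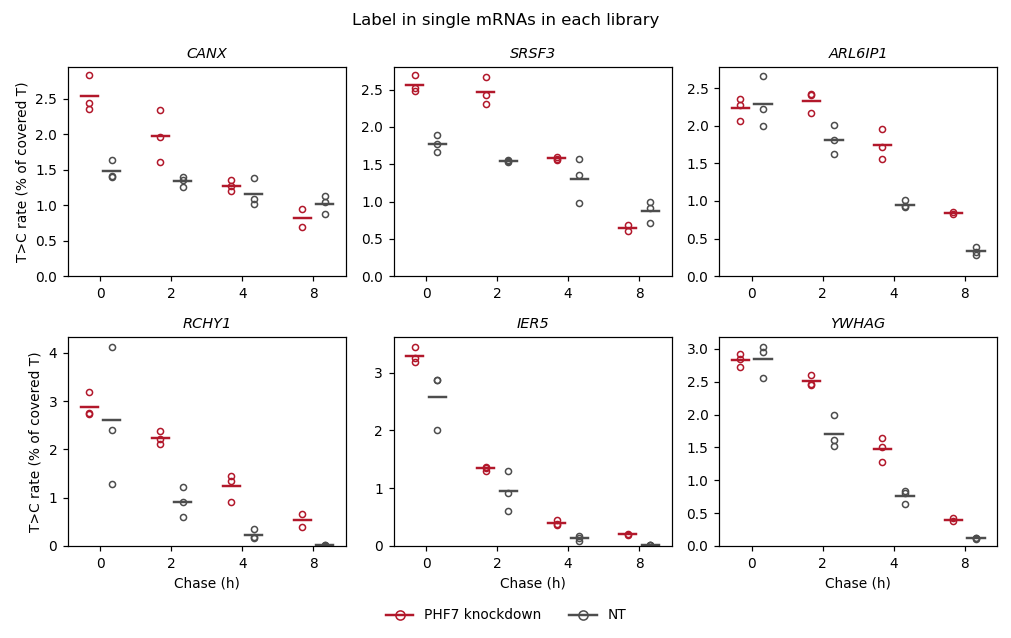
T>C rate (percent of covered T positions, y axis) of 6 mRNAs in each library by hours of chase (x axis), with PHF7 knockdown in red to the left of NT in grey and bars at the group means. CANX and SRSF3 start higher and end lower or level in PHF7 knockdown, and ARL6IP1, RCHY1, IER5 and YWHAG hold more label in PHF7 knockdown from 4 h on.

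Calls for level and for label loss met in few genes. Of 578 genes called higher that also entered the label test, 4 (0.692%) were called slower and 0 faster, and of 791 called lower, 4 (0.506%) were slower and 2 (0.253%) faster. Of the 6105 genes not called for level, 23 (0.377%) were slower and 1 (0.0164%) faster, and over all genes tested the shares were 0.415% slower and 0.0401% faster, so the shares of slower genes lay near the background. The slower sign was held by 74.4% of the genes called higher, 64.1% of those called lower and 66.4% of the 6105 not called. ARL6IP1, named after its values were seen, was higher in level (442 ± 43.3 CPM in PHF7 knockdown and 287 ± 44.3 CPM in NT) and lost label at 0.126 per h in PHF7 knockdown and 0.253 per h in NT (edgeR adjusted p = 0.0148). It was not called by limma (0.0572) or with PHF7 8 h replicate 3 added back (0.238).

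Sequence features that played no part in the choice of libraries were read from the counted 3′ UTR intervals on hg38, on the transcribed strand only. The GC content had a median of 47.8% in genes called lower, 41.3% in genes called higher and 43.6% in all genes tested. Genes with at least 20 CPM were split into 5 bins of GC content. In the bin of highest GC, 84 of 1558 were called higher and 298 lower (median log2 fold change -0.07), and in the bin of lowest GC 135 of 1559 were called higher and 115 lower (0.07). Base composition thus moved with the direction of the calls, and its part in them was not tested.

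The AU-rich heptamer TATTTAT was present in 30.2% of genes called lower, 36.5% of genes called higher and 38.5% of all genes tested, and its core ATTTA, which the heptamer contains, in 68.4% of genes called lower, 79.7% of genes called higher and 77.2% of all. The medians of the counted length were 1572.5 bases in genes called lower, 1678.5 in genes called higher and 1929 in all. The match to the guide seed, CAGAAAT, was present in 26.5% of genes called lower, 24.1% of genes called higher and 28.5% of all genes tested, and the 8-base match CAGAAATA in 9.25% of genes called lower, 8.33% of genes called higher and 9.46% of all. Neither seed match was more frequent in the genes called lower than in all genes tested. Length was not taken into account, and genes with the 7-base match had a median counted length of 3624.5 bases, against 1475 without it. The match to the seed of the non-target guide, AGCACCA, was present in 12.9% of genes called lower, 14.4% of genes called higher and 16.7% of all. The part of either seed in the calls was not tested.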

How the data were processed

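SLAM-seq libraries of 11 PHF7 knockdown and 12 NT knockdown samples were compared at matched chase times. The authors aligned the reads to hg38 and scored T>C conversions with SlamDunk 0.4.3, keeping multimapped reads, and deposited per 3′ UTR interval the read counts, T>C read counts, covered T positions and conversions, all as raw counts. The deposited CPM values, reads per interval scaled to the library by the authors, were used only as filters. The minimum of 5 CPM for the half-lives, the label tests and the pooled T>C rate is on that scale. For the variant mask, the base quality minimum and the strand setting, values were not given in the sources used here. No molecular identifiers were used, and no library without 4SU was analysed here.

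Counts of 69079 intervals were summed over 19761 Ensembl genes, of which 19501 were found in GENCODE 44 and 2516 share counted bases with another gene. Levels were tested with edgeR 4.0.16 (R 4.3.3) quasi-likelihood fits with TMM scaling, filterByExpr and chase time as a factor, and a call needed a Benjamini-Hochberg adjusted p under 0.05 and a fold change over 1.2. Label loss was tested in the same way on conversions with log T coverage as offset and an arm by hours term. Half-lives came from first-order fits to replicate means relative to 0 h, with R² over 0.6, for genes that at every chase time exceeded 5 CPM in 2 or more replicates. Single values were tested by exact permutation. Tables were handled in Python 3.11.15.

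Named mRNAs were called genes with a symbol, no shared bases, under 20% multimapped reads, at least 20 CPM in the higher arm, the same sign at each chase time and no overlap of the arms (12 largest rises and 12 largest falls, then the 4 of smallest p each way), up to 4 called members of a list each way, and up to 6 genes each way for label loss. Members and lists were chosen with earlier results of these data known. Alternatives were DESeq2 1.42.0, limma 3.58.1, other filters, thinning, no multimapped reads, single chase times, a replicate block, the library of 63659 reads added back, and each library left out in turn. Both fits were tested on simulated data. P-values measure the spread between these libraries only, and depth, which differed between the arms, sets the counting error. Those of the pooled loss also take in the difference in label between the arms. Some members of the lists are not reported here.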

Additional observations from a re-analysis of the deposited data

Results flagged for a closer look

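ZKSCAN5, a KRAB zinc-finger gene, was the 1 gene whose difference between PHF7 knockdown and NT depended on chase time (edgeR quasi-likelihood adjusted p = 0.0321). Its level was 1739 CPM in PHF7 8 h replicate 1 and 23.2 to 55.0 CPM in the other PHF7 libraries, and it was 18.5 to 56.6 CPM in the NT libraries. The 29703 reads of ZKSCAN5 in that library covered only 19003 T positions. The difference rests on this library.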

How the results depend on the processing

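The 1922 expression calls were 1121 with PHF7 8 h replicate 3 added back (1109 of them among the 1922), and 209, 125, 39 and 4 at 0, 2, 4 and 8 h alone, where fewer libraries entered. The 37 ribosomal protein calls were 17, 17, 5 and 2 at those times. Other settings gave 1803 to 2168 calls, with 998 higher and 916 lower under DESeq2 size factors. RPS9 turned to 0.28 without multimapped reads, and SHCBP1 to -0.068 against ZMAT5 alone. The 1 gene dependent on chase time became 76 with the DESeq2 likelihood ratio test, 10 with no filter and 0 with PHF7 8 h replicate 3. The 34 label loss calls were 2 with limma, 17 on T>C reads, 1 from 0 to 4 h, and 22 with PHF7 8 h replicate 3, while the pooled loss, slower in PHF7 knockdown by 0.0127 per h, turned to a faster one, at -0.0229 per h with that library and at -0.0049 from 2 to 8 h, a setting chosen after seeing the data. The log2 half-life shift of 0.56 kept its direction in all settings tried, at 0.38 with a straight line on the log scale, 0.39 with PHF7 8 h replicate 3 and 0.76 from 0 to 4 h. From 0 to 4 h alone, none of the genes named for label loss was called. The cause was not tested. The AU-rich core ATTTA was in 68.4% of genes called lower and 79.7% of genes called higher, and the 8-base seed match in 9.25% of genes called lower and 8.33% of genes called higher.

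With the replicate block, 1909 genes were called for level, 14 for label loss, 0 for label at 0 h and 0 for dependence on chase time. The replicate numbers are names only, and no correlation of same-numbered deviations was over 0.1.

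Over the fits that left out a library, expression calls were 1670 to 2006, ribosomal protein calls 34 to 39, genes dependent on chase time 0 to 4, label loss calls 11 to 72, label calls at 0 h 0 to 90, the half-life shift 0.51 to 0.60, the pooled label difference at 0 h 0.442 to 0.521 percentage points, and the pooled loss difference 0.0082 to 0.0176 per h.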

Other observations

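The library left out, PHF7 8 h replicate 3, held 63659 reads in 3279 genes, and its T>C rate over all intervals was 0.388%, against 0.910% and 0.864% in PHF7 8 h replicates 1 and 2. CNOT6, the CCR4-NOT deadenylase named among the falls, lost label at 0.240 per h in PHF7 knockdown and 0.0543 per h in NT, a difference that was not called (edgeR adjusted p = 0.132).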
